A study of Homo sapiens with 13 samples.

Results

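Bidirectional protein-coding promoter peaks are accessible regions that hold start sites of protein-coding genes reading away from or past each other on opposite strands. A peak of the deposited table was a member when it overlapped annotated transcription start sites (TSSs) of at least 2 different protein-coding genes, with at least 1 gene on each strand. Of 129347 peaks in the table, 1447 met this rule, and 11653 peaks overlapped TSSs of exactly 1 protein-coding gene. Accessibility was measured by ATAC-seq, in which the transposase Tn5 inserts sequencing adapters into open DNA. The cells were T98G, an established human glioblastoma line. The 3 G1 libraries came from cells starved of serum for 72 h. The 3 M-phase libraries came from cells starved for 48 h, then released for 36 h into medium with nocodazole, a microtubule poison that arrests cells in mitosis, and collected by shaking. The question was how accessible these promoters were in mitotic cells relative to G1 cells, and whether they differed in this from promoters of a lone gene.

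In a bidirectional promoter a shared nucleosome-depleted region lies between a pair of genes transcribed in opposite directions. Such pairs are common in the human genome, are rich in CpG islands and poor in TATA boxes, and often encode housekeeping proteins for DNA repair, mitochondria and the ribosome. During mitosis chromosomes condense and most transcription stops, while many promoters remain open to nucleases and transposases.

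The members differed in how much DNA separated their start sites and in what that DNA contained. Below is the reference sequence between the closest divergent TSSs of 10 members, read 5′ to 3′ on the plus strand of GRCh37, which has the same chromosomes as hg19. The name gives the minus-strand gene before the slash and the plus-strand gene after it. None of these stretches overlaps an annotated exon. Capitals mark matches, on either strand, to short promoter consensus sequences: ETS (CCGGAAG), NRF1 (GCGCNTGCG), NF-Y (CCAAT), SP (GGGCGG), E2F (TTCCCGCC) and the TATA box (TATAAA). A match is a match of letters and is not a measured binding site.

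The sequences of FBXO31/MAP1LC3B (chr16:87417383-87417558), CRYZL1/ITSN1 (chr21:35014645-35014705) and WDHD1/SOCS4 (chr14:55493824-55493947) are shown because these peaks were among those that rose most in M-phase.
FBXO31/MAP1LC3B: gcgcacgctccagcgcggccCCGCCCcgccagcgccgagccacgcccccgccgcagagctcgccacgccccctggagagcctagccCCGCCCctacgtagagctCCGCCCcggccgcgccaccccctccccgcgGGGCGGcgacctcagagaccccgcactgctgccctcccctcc
CRYZL1/ITSN1: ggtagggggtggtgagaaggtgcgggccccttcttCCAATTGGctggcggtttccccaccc
WDHD1/SOCS4: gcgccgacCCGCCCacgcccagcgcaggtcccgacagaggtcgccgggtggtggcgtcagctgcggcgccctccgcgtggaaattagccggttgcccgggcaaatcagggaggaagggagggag
Those of MRPL50/ZNF189 (chr9:104160901-104161132) and of ENSG00000239920/TRIM34 (chr11:5646125-5646230) are shown because these peaks were among those that fell most.
MRPL50/ZNF189: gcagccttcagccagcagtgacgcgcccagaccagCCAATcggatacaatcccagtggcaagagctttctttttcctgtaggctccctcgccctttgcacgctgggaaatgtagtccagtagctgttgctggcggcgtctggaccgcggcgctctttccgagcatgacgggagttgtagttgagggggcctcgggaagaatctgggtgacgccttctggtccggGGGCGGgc
ENSG00000239920/TRIM34: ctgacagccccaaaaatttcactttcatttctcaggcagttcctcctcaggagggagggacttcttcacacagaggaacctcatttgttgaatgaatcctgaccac
The remaining stretches show the range of composition, from a histone pair with TATA boxes (chr1:149858233-149858467) to stretches of higher GC content at SARS2/MRPS12 (chr19:39421404-39421583), TK1/AFMID (chr17:76183315-76183438), VPS35/ORC6 (chr16:46723431-46723554) and LRRC41/UQCRH (chr1:46769289-46769369).
H2AC21,H2BC21/BOLA1,H2AC20: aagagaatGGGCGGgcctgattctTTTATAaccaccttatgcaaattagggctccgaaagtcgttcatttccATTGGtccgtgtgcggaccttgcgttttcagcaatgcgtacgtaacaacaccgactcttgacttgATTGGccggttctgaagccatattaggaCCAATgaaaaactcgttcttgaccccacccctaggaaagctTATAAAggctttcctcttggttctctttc
SARS2/MRPS12: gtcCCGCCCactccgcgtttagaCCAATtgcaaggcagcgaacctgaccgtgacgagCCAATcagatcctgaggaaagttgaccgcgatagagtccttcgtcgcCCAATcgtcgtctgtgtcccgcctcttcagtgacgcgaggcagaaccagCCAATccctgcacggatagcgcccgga
TK1/AFMID: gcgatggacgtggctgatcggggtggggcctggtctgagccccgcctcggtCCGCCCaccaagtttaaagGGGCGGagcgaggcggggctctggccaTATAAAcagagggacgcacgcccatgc
VPS35/ORC6: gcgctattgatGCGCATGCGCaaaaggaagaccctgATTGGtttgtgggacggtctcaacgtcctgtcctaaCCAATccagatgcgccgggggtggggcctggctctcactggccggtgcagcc
LRRC41/UQCRH: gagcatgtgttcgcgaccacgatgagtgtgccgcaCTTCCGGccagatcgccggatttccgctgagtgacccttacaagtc
FBXO31/MAP1LC3B, at 81.2% GC, held 4 matches to SP and none to the other consensus sequences, whereas the TRIM34 stretch, at 47.2% GC, held no match. The histone stretch, at 46.4% GC, held 3 NF-Y matches and 2 TATA boxes, and SARS2/MRPS12 held 4 NF-Y matches.

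The deposited values are read counts per peak scaled to the smallest library, called scaled counts here. Their totals in peaks ran from 4191845.3 to 5092426 in the G1 libraries and from 5475344.6 to 6000423.4 in the M-phase libraries. The smallest value above 0 was 0.8 to 1.0 in G1 and 0.4 to 0.5 in M-phase, so a read counted for less after scaling in the M-phase libraries. Each M-phase replicate had a HiSeq and a NextSeq run that the table does not separate, and the G1 libraries had HiSeq runs only. Platform, serum release and cell cycle phase therefore cannot be told apart. Nothing in the labels says that replicates came from separate cultures, so p-values measure the spread between these libraries, which may be technical. Among the marker genes of the line, VIM, CD44, FN1 and SPARC had promoter peaks and NES had none, and the astroglial genes GFAP, S100B and AQP4 had none. Of genes of other cell types, PTPRC, CD3E, ALB and CDH1 had no promoter peak and EPCAM had 1.

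Most bidirectional promoters carried more ATAC-seq signal in M-phase than in G1. Of the 1445 members with enough signal to be tested, 948 (65.6%) were higher in M-phase and 32 (2.21%) were lower, at an adjusted p under 0.05 in limma. Among all 73121 tested peaks, 14.3% were higher and 13.1% were lower. The remaining 465 members passed in neither direction. The median log2 change of the members was 0.66, with quartiles of 0.30 and 0.98 and a range from -1.30 to 2.51, and 88.0% of members had a change above 0. The median over all tested peaks was 0.02. In 992 members (68.7%) every M-phase library was above every G1 library, against 19.7% of all tested peaks, and in 51 members (3.53%) every M-phase library was below, against 18.6%. The 2 members without a test lay at CHDH/IL17RB on chromosome 3, with 5.8 to 15.2 scaled counts, and at SATL1/ZNF711 on the X chromosome, with 4.0 to 16.4.

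The size of this rise depended on the scaling of the libraries. When every library was set to the same total in peaks, 682 members were higher and 137 lower. The share of higher peaks among the calls was 83.3% instead of 96.7%. The median over all tested peaks was then -0.23 and that of the members 0.32, so the whole set of peaks shifted downward. The share of all tested peaks called under that scaling is not given here. A trended scaling, which removes from each library any smooth dependence of its values on peak abundance, left 405 members higher and 278 lower, a share of 59.3%. Under that scaling 9.99% of all tested peaks were higher and 14.6% were lower. The members' median change was then 0.12. Of the 948 higher members, 383 were higher under all 4 scalings tried, and 50 were lower after the trended scaling. Of the 32 lower members, 31 were lower under all 4.

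**Figure D1:**
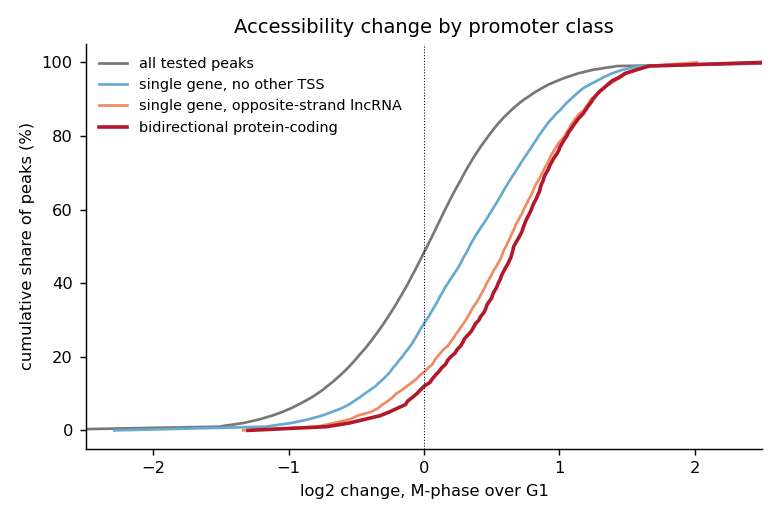
Cumulative share of peaks (vertical axis, %) against their log2 change in M-phase over G1 (horizontal axis) for 4 classes of tested peaks. The curve of bidirectional protein-coding promoters has a median of 0.66 and runs close to that of single-gene promoters with an opposite-strand lncRNA start site (0.61), crossing it near the top, and its median is above those of single-gene promoters with no other start site (0.34) and of all tested peaks (0.02).

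In every library the bidirectional peaks had more signal per peak than single-gene promoter peaks, and this gap was wider in M-phase. The per-library median of log2(scaled count + 8) over the members was 7.58, 7.43 and 7.81 in the G1 replicates and 8.13, 8.26 and 8.31 in the M-phase replicates. All 3 M-phase values lay above all 3 G1 values, with a mean difference of 0.62 (exact permutation test, two-sided, p = 0.1, the smallest that 3 against 3 libraries can give). For the 11319 tested single-gene peaks the difference was 0.43. Of these, 5022 (44.4%) were higher in M-phase and 653 (5.77%) were lower, with a median change of 0.40, which is 0.26 below that of the members. Among single-gene peaks 2372 were higher and 2047 lower after the trended scaling, and 3408 and 1940 with an equal total in peaks. The members' median exceeded the single-gene median by 0.50, 0.45 and 0.53 in G1 and by 0.68, 0.69 and 0.69 in M-phase. The difference between classes was thus larger by 0.19 in M-phase, with no overlap between the phases' libraries (exact permutation p = 0.1). After the trended scaling it was larger by 0.02 (exact permutation p = 0.2). Member peaks held 7.08% ± 0.38 (SD, n = 3) of all scaled counts in the G1 libraries and 9.21% ± 0.20 (SD, n = 3) in the mitotic libraries, and the phases did not overlap (exact permutation p = 0.1).

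A closer comparison came from single-gene peaks that also held the TSS of a long noncoding RNA (lncRNA) on the opposite strand. The order and distance of these start sites were not checked, so the pairs may diverge or overlap. They matched the members in abundance, with a median of 243 scaled counts per peak against 248, and in width, with a median of 1448 bp against 1434 bp. Of 2200 such peaks, 1326 (60.3%) were higher and 75 (3.41%) were lower in M-phase, with a median change of 0.61. After the trended scaling 546 of them were higher and 469 lower, with a median of 0.04, and with an equal total in peaks 934 were higher and 288 lower. The members' per-library median minus theirs was -0.01, -0.02 and -0.03 in the G1 replicates and 0.04, 0.04 and 0.05 in the M-phase replicates. These differences did not overlap between phases but their mean shift was only 0.07 (exact permutation p = 0.1). Single-gene peaks with no other start site were weaker, at a median of 137 scaled counts, and narrower, at 1130 bp. Of 8810 of these, 39.9% were higher and 6.4% were lower, with a median change of 0.34. Peaks with several protein-coding genes on the same strand had a median change of 0.58 over 367 tested peaks.

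**Figure D2:**
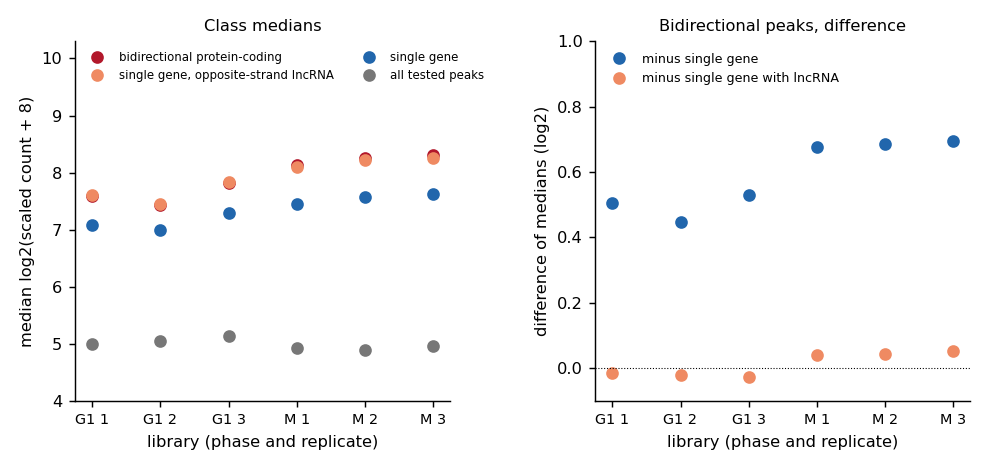
Left, median log2(scaled count + 8) of 4 peak classes in each of the 6 libraries; right, the bidirectional median minus that of single-gene peaks (blue) and of single-gene peaks with an opposite-strand lncRNA TSS (orange), in log2 units, 1 point per library. The blue differences are 0.45 to 0.53 in G1 and 0.68 to 0.69 in M-phase, and the orange ones lie between -0.03 and 0.05 in all 6 libraries.

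The change of a bidirectional peak went with its abundance, taken as its mean over all 6 libraries. That mean includes the M-phase values, so a rise in M-phase itself lifts a peak's abundance. Bins by G1 signal alone were not made. Among members with a mean of under 50 scaled counts the median change was 0.09 over 26 peaks, and it was 0.26 over 106 peaks from 50 to 100. It was 0.56 over 397 peaks from 100 to 200, 0.72 over 611 peaks from 200 to 400 and 0.92 over 305 peaks of 400 and more. Single-gene peaks followed the same order, with medians of -0.09, 0.12, 0.42, 0.64 and 0.93 in these bins. The members' median was thus above that of single-gene peaks in each bin up to 400 and just below it in the highest bin. After the trended scaling the members' medians were 0.19, 0.20, 0.19, 0.10 and 0.01, and those of single-gene peaks were 0.00, 0.04, 0.08, 0.03 and 0.04. These bin medians are descriptions and carry no test.

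**Figure D3:**
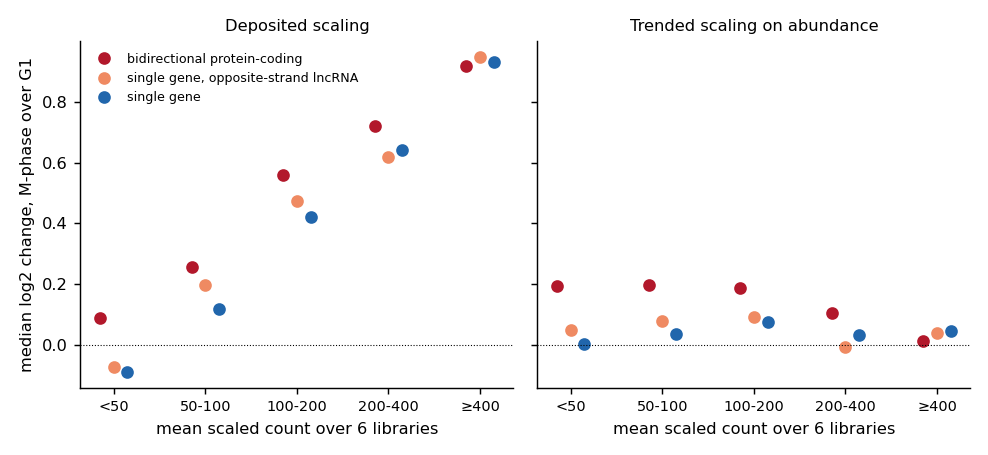
Median log2 change in M-phase over G1 (vertical axis) of promoter peaks in bins of mean scaled count. The classes are bidirectional (red), single-gene with an opposite-strand lncRNA TSS (orange) and all single-gene (blue). Values are as deposited (left) and after trended scaling on abundance (right). On the left the medians of bidirectional peaks climb from 0.09 to 0.92 with abundance, and on the right they lie between 0.01 and 0.20.

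Bidirectional promoters were more often CpG-rich than single-gene promoters as a whole, though not than those with an opposite-strand lncRNA TSS. Their median change was similar with and without a CpG-rich centre. A CpG-rich centre, with at least 50% GC and an observed-to-expected CpG ratio above 0.6 in the central 200 bp, was found in 85.1% of members, 76.5% of single-gene peaks, 88.3% of single-gene peaks with an opposite-strand lncRNA TSS and 19.5% of all tested peaks. CpG-rich members had a median change of 0.67 over 1229 peaks, and CpG-rich single-gene peaks had 0.49. The 216 members whose centre was not CpG-rich had nearly the same median, 0.65, whereas the 2656 single-gene peaks without a CpG-rich centre had 0.11. In these 216 members 62.5% were higher in M-phase, and in the corresponding single-gene peaks 26.4% were. Single-gene peaks with an opposite-strand lncRNA TSS and no CpG-rich centre lay between, with a median of 0.47 over 257 peaks and 50.2% higher. Under the trended scaling the medians of these groups without a CpG-rich centre were 0.07 and -0.04.

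Most start site pairs were close together. In 1356 tested members the minus-strand TSS lay upstream of the plus-strand TSS, head to head, with a median distance of 98 bp between the closest TSSs, and in 1189 of them the distance was at most 300 bp. In the other 89 the closest start sites overlapped, so that the genes read past each other. The median change was 0.56 in these 89, 0.64 in the 692 members with a distance of up to 100 bp and 0.66 in the 497 beyond 100 and up to 300 bp. It was 0.85 in the 150 beyond 300 and up to 1000 bp and 0.84 in the 17 beyond 1000 bp. The share higher in M-phase was 55.1%, 62.6%, 67.6%, 77.3% and 82.4% in the same order. In each of these 5 classes the M-phase per-library medians lay above all G1 medians (exact permutation p = 0.1). The median abundance rose along the same order, from 191 scaled counts to 218, 261, 352 and 424. The median peak widths were 1386, 1372.5, 1439, 1663.5 and 2348 bp. Over all members the median change rose with width, from 0.05 over 15 peaks up to 500 bp to 0.92 over 185 peaks over 2000 bp. Distance, width and abundance were not separated. After the trended scaling, which removes abundance-linked change by construction, the medians of all 5 classes lay between 0.09 and 0.14. In the class beyond 1000 bp, the phases' per-library medians then overlapped (exact permutation p = 0.5).

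**Figure D4:**
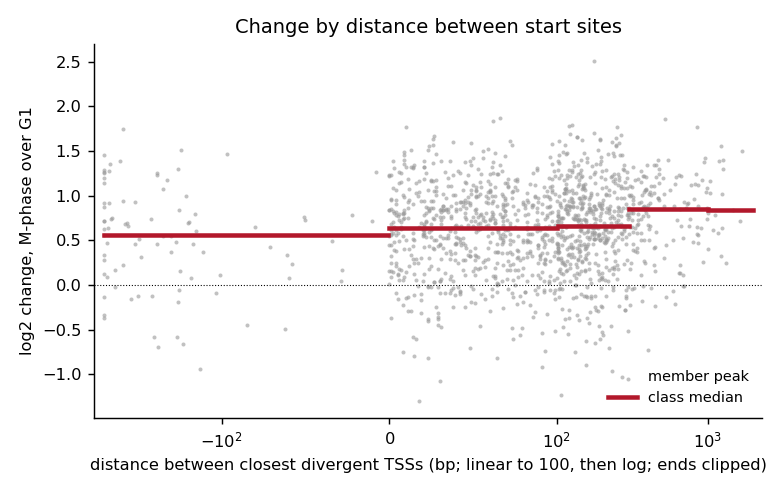
Log2 change in M-phase over G1 of each tested bidirectional peak (grey) against the distance between its closest divergent TSSs, linear to 100 bp and logarithmic beyond, with the median of each distance class as a red line; negative distances are overlapping start sites. The medians run from 0.56 for overlapping start sites to 0.85 beyond 300 and up to 1000 bp, and single peaks spread widely around them in every class.

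The largest rises, among members with a mean of at least 50 scaled counts and no overlap between the phases, were at peaks that each hold several genes. Among these were genes of autophagy, mRNA export, chromosome condensation, endocytosis and DNA replication. Each of these roles belongs to only some of the genes at its peak, and the signal was not assigned to a gene. FBXO31/MAP1LC3B, which pairs an F-box protein with the autophagosome protein LC3B, had 304.2, 282.0 and 362 scaled counts in G1 and 1678.7, 1886.3 and 1926.7 in M-phase (log2 change 2.51 ± 0.15 SE, limma adjusted p = 3.86e-25). Its lowest M-phase library was more than 4 times its highest G1 library. HCFC1R1/THOC6,TNFRSF12A, whose plus-strand genes encode an mRNA export factor and the TWEAK receptor, had 697.9, 585.2 and 677 in G1 and 2271.9, 2400.9 and 2535.4 in M-phase (log2 change 1.87 ± 0.14 SE, limma adjusted p = 1.64e-19). LMF2/NCAPH2, which holds the start of a condensin II subunit, had 353.9, 384.4 and 371 in G1 and 1266.3, 1387.3 and 1438.3 in M-phase (log2 change 1.86 ± 0.15 SE, limma adjusted p = 9.8e-18). In these peaks the phases were widely separated and the replicates of a phase lay close together.

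CRYZL1/ITSN1, at the start of the endocytic scaffold protein intersectin 1, had 447.4, 364.8 and 520 scaled counts in G1 and 1498.3, 1669.2 and 1601.9 in M-phase (log2 change 1.83 ± 0.15 SE, limma adjusted p = 1.51e-17). WDHD1/SOCS4 pairs a DNA replication factor with a suppressor of cytokine signalling. It had 28.8, 44.5 and 73 in G1 and 157.0, 192.4 and 189.1 in M-phase (log2 change 1.79 ± 0.22 SE, limma adjusted p = 3.58e-10). It was the weakest of the 5 in signal and the most variable among G1 libraries. All 5 peaks were also higher after the trended scaling, with log2 changes of 1.45 at FBXO31/MAP1LC3B, 0.60 at HCFC1R1/THOC6,TNFRSF12A, 0.83 at LMF2/NCAPH2, 0.74 at CRYZL1/ITSN1 and 1.63 at WDHD1/SOCS4.

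The largest falls were smaller than the largest rises and ranged in signal from weak to moderate peaks. RAG2/IFTAP, at the lymphocyte recombinase gene RAG2, had 150.1, 155.5 and 224 scaled counts in G1 and 78.7, 73.8 and 48.6 in M-phase (log2 change -1.30 ± 0.21 SE, limma adjusted p = 7.39e-07). ENSG00000239920/TRIM34 had 91.5, 74.2 and 143 in G1 and 35.4, 44.9 and 33.7 in M-phase (log2 change -1.23 ± 0.24 SE, limma adjusted p = 2.14e-05). LANCL1/CPS1, whose plus-strand gene encodes the urea cycle enzyme carbamoyl phosphate synthetase, had 369.8, 377.3 and 575 in G1 and 206.4, 191.2 and 205.9 in M-phase (log2 change -1.07 ± 0.18 SE, limma adjusted p = 9.43e-07). In all of these G1 replicate 3 was the highest library, and no M-phase library reached the lowest G1 value.

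CAPN14/EHD3 pairs a calpain protease with an endocytic protein. It had 119.3, 74.2 and 122 scaled counts in G1 and 46.6, 40 and 49.6 in M-phase (log2 change -1.06 ± 0.23 SE, limma adjusted p = 0.000162). MRPL50/ZNF189 pairs a subunit of the mitochondrial ribosome with a zinc finger gene. It had 317.1, 346.9 and 519 in G1 and 186.6, 172.2 and 227.1 in M-phase (log2 change -0.96 ± 0.18 SE, limma adjusted p = 1.51e-05). After the trended scaling the 5 falls were larger or about as large, from -1.10 at CAPN14/EHD3 to -1.73 at LANCL1/CPS1.

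**Figure D5:**
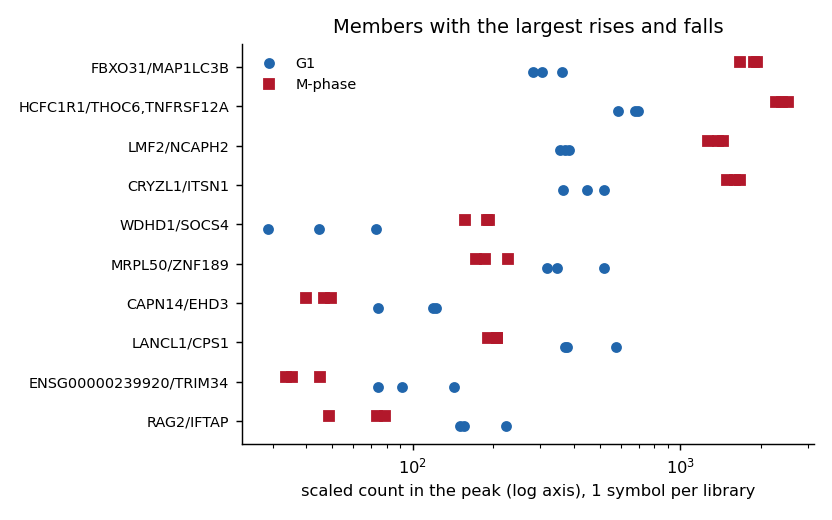
Scaled counts (logarithmic axis) of the 10 bidirectional peaks with the largest rises and falls, with 3 G1 libraries as blue circles and 3 M-phase libraries as red squares. In each peak the phases do not overlap, and FBXO31/MAP1LC3B has the widest separation, from 362 in its highest G1 library to 1678.7 in its lowest M-phase library.

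Well-known head-to-head pairs were mostly more accessible in M-phase. Of 28 such pairs in the list, 25 had a member peak, and TAP1/PSMB9 and ACAT1/CUL5 were among those that had none. Of the 25 peaks, 16 were higher in M-phase, 0 were lower and 9 passed in neither direction, with a median change of 0.63. At an unadjusted limma p under 0.05, 0 were lower too, and the change was above 0 in 23 of the 25. Among all tested members 65.6% were higher and 2.21% lower at the adjusted threshold, and among all tested peaks 14.3% and 13.1%.

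Among the larger rises in the list were a mitochondrial pair and a nucleotide metabolism gene. SARS2/MRPS12 combines a mitochondrial tRNA synthetase with a mitochondrial ribosomal protein. It had 188.9, 130.5 and 142 in G1 and 377.8, 419.5 and 410.0 in M-phase (log2 change 1.36 ± 0.18 SE, limma adjusted p = 2.59e-09). TK1/AFMID, at the gene of thymidine kinase 1, had 260.5, 234.4 and 284 in G1 and 523.2, 646.5 and 758.3 in M-phase (log2 change 1.27 ± 0.17 SE, limma adjusted p = 2.04e-09). The phases did not overlap at either peak, and both were also higher after the trended scaling, by 0.78 and 0.48.

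SKA2/PRR11, which holds the start of a kinetochore protein of the spindle attachment complex, rose by 1.25 (limma adjusted p = 4.32e-10). HADHA/HADHB, both subunits of the mitochondrial trifunctional protein of fatty acid oxidation, rose by 1.19 (limma adjusted p = 1.38e-07). SIRT3/PSMD13, a mitochondrial deacetylase and a proteasome subunit, rose by 1.20 (limma adjusted p = 5.42e-08). PPAT/PAICS, enzymes of purine synthesis, rose by 0.93, and TRMT2A/RANBP1 by 0.89. IDH3G/SSR4 rose by 0.88, OSGEP/APEX1 by 0.77 and SURF1/SURF2 by 0.69. After the trended scaling SURF1/SURF2 kept its call (0.50), while PPAT/PAICS (0.03), TRMT2A/RANBP1 (0.24), IDH3G/SSR4 (0.30) and OSGEP/APEX1 (0.34) passed no longer. NPAT/ATM and PRKDC/MCM4 each rose by 0.63. After the trended scaling NPAT/ATM passed as lower (-0.34) and PRKDC/MCM4 had no call (-0.21). CEBPZ/NDUFAF7 and PIGF/CRIPT also passed, with changes of 0.52 and 0.60, but not after the trended scaling (0.09 and 0.25). With an equal total in peaks, CEBPZ/NDUFAF7 (0.18), PIGF/CRIPT (0.26), SURF1/SURF2 (0.37) and PRKDC/MCM4 (0.28) had no call. CEBPZ/NDUFAF7 also had none under TMM scaling (0.39) or with a pseudocount of 1 (0.55).

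Some of these calls rested on 1 library. CEBPZ/NDUFAF7 lost its call without G1 replicate 2 (0.25), M-phase replicate 2 (0.46) or M-phase replicate 3 (0.44). PIGF/CRIPT lost it without M-phase replicate 1 (0.60) or 3 (0.46), NPAT/ATM (0.51) and SURF1/SURF2 (0.64) without M-phase replicate 3, and PRKDC/MCM4 (0.48) without G1 replicate 1.

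Housekeeping pairs without a call included the chaperonin pair HSPD1/HSPE1, which shares a peak with HSPE1-MOB4. It had 436.4, 357.0 and 519 scaled counts in G1 and 414.8, 450.4 and 482.6 in M-phase (log2 change 0.05 ± 0.16 SE, limma adjusted p = 0.862). The M-phase libraries lay within the range of the G1 libraries. AUP1/HTRA2 (-0.17) and PDCD10/SERPINI1 (-0.22) had the only values below 0 as deposited. Both passed as lower after the trended scaling (-0.87 and -1.34) and with an equal total in peaks (-0.52 and -0.58). HSPD1/HSPE1 also passed as lower under these scalings (-0.78 and -0.30). HARS1/HARS2, the cytosolic and mitochondrial histidyl-tRNA synthetases, had 0.25 (limma adjusted p = 0.34). ZNF142/BCS1L and RECQL/GOLT1B each had 0.24, FASTKD3/MTRR had 0.04 and the collagen IV pair COL4A1/COL4A2 had 0.42 (limma adjusted p = 0.0721). Without G1 replicate 3, the highest G1 library at these peaks, RECQL/GOLT1B (0.46) and COL4A1/COL4A2 (0.49) passed. After the trended scaling HARS1/HARS2 (-0.36), RECQL/GOLT1B (-0.55) and FASTKD3/MTRR (-0.59) passed as lower.

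Among the gene groups, core histones had the highest median change. All 11 bidirectional peaks with a core histone gene were higher in M-phase, with changes from 0.98 to 1.64 and a median of 1.44, and all 11 were higher under each of the 4 scalings. The group was chosen by gene symbol, and nearby histone genes of near-identical sequence can share reads, since reads with up to 3 genomic locations were kept. The most abundant was the peak at H2AC21, H2BC21, BOLA1 and H2AC20, with 542.8, 402.3 and 546 scaled counts in G1 and 1341.3, 1467.7 and 1349.7 in M-phase (log2 change 1.48 ± 0.15 SE, limma adjusted p = 1.99e-13). The 31 single-gene histone peaks had a median of 1.17, with 29 higher. After the trended scaling the median was 0.64 in the bidirectional histone peaks and 0.65 in the single-gene ones.

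The calls of the other groups depended on the scaling, and their counts are given as deposited and then after the trended scaling. Of all tested members 65.6% were higher and 2.21% lower as deposited, and 28.0% and 19.2% after the trended scaling. Of all tested peaks 14.3% were higher and 13.1% lower as deposited, and 9.99% and 14.6% after the trended scaling. Of 45 members with a mitosis gene 33 were higher and 1 was lower (14 and 7 after the trended scaling), with a median of 0.81, against 0.53 over 80 single-gene peaks. Of 18 with a DNA replication gene 15 were higher and 0 lower (5 and 3), with a median of 0.75. VPS35/ORC6, at an origin recognition complex subunit, had the highest signal of these and rose by 1.29 (limma adjusted p = 1.83e-10). Of 35 with a DNA repair gene 22 were higher and 1 lower (6 and 7), with a median of 0.63. CFL1/MUS81, at a structure-specific endonuclease gene, rose by 1.23 (limma adjusted p = 3.47e-10), but after the trended scaling it had 0.21 and no call.

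Gene expression machinery gave similar counts. Of 22 members with a cytosolic ribosomal protein gene 18 were higher and 0 lower (8 and 4 after the trended scaling), with a median of 0.75, and RPL7/RDH10 rose by 0.77 as deposited but had -0.33 after the trended scaling. Of 16 with an RNA polymerase subunit gene 12 were higher and 1 lower (3 and 4), with a median of 0.66. ZBTB4/POLR2A, at the largest subunit of RNA polymerase II, had 439.4, 381.3 and 430 scaled counts in G1 and 1200.4, 1226.6 and 1455.6 in M-phase (log2 change 1.61 ± 0.15 SE, limma adjusted p = 6.73e-15). Of 10 with a tRNA synthetase gene 7 were higher and 0 lower (3 and 3), with a median of 0.79. CARS2/ING1 was the most abundant of them, and it rose by 1.35 as deposited but had -0.16 after the trended scaling. Of 51 with a zinc finger gene 31 were higher and 1 lower (12 and 10), with a median of 0.63, and LPXN/ZFP91,ZFP91-CNTF rose by 0.65 as deposited but had -0.50 after the trended scaling.

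Mitochondrial and protein quality groups are given next. Of 28 members with a mitochondrial ribosomal protein gene 17 were higher and 1 lower (9 and 2 after the trended scaling), with a median of 0.65, the fall being MRPL50/ZNF189. MRPS34,NME3/EME2 rose by 1.03, but after the trended scaling it had 0.20 and no call. Of 34 with a respiratory chain gene 17 were higher and 0 lower (6 and 6), with a median of 0.53. LRRC41/UQCRH, at a complex III subunit, rose by 0.62 as deposited but had -0.34 after the trended scaling. Of 16 with a proteasome gene 12 were higher and 1 lower (6 and 1), with a median of 0.74. The most abundant of these, PSME3IP1/RSPRY1, rose by 1.39. PSME3IP1 encodes a protein that binds a proteasome activator rather than a subunit, and the counts and median of this group include its peak. Of 26 with a chaperone gene 14 were higher and 0 lower (7 and 8), with a median of 0.62, and PNPLA8,THAP5/DNAJB9 had 0.16 (limma adjusted p = 0.513), with overlapping phases, and passed with 0.39 without G1 replicate 3. In the groups given with 0 lower members at limma's adjusted threshold, 0 were lower at an unadjusted p under 0.05 too, in the deposited scaling. With an equal total in peaks, 2 chaperone, 2 cytosolic ribosome and 1 respiratory chain members were lower. Of all tested members 9.48% were lower under that scaling. Single-gene medians as deposited were above the members' for cytosolic ribosome (0.84) and RNA polymerase genes (0.71). They were below for DNA replication (0.61), DNA repair (0.51), tRNA synthetase (0.34) and zinc finger genes (0.42). So were mitochondrial ribosome (0.35), respiratory chain (0.47) and proteasome genes (0.72), and chaperones had 0.62 in both. After the trended scaling they were also above for respiratory chain, proteasome, zinc finger and DNA repair genes. No group was tested against another.

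Several promoter consensus sequences were more frequent at the centre of bidirectional peaks than of single-gene peaks as a whole. In the central 200 bp, the ETS consensus CCGGAAG was present in 14.7% of members (95% Wilson interval 12.9 to 16.6), 7.40% of single-gene peaks and 2.61% of all tested peaks. The NRF1 consensus GCGCNTGCG was present in 9.34% (7.95 to 11.0), 5.04% and 1.33%, and CCAAT of NF-Y in 22.2% (20.1 to 24.4), 15.9% and 20.9%. GGGCGG of SP was about equally common in members (56.1%) and single-gene peaks (54.2%), against 16.9% of all tested peaks. The TATA box was present in 1.73% of members, 2.10% of single-gene peaks and 7.09% of all tested peaks. The intervals cover sampling of peaks only, and members that share genes or family sequences are not independent.

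Less common motifs followed the same direction. AAGATGGC of YY1 was present in 3.6% of members and 2.15% of single-gene peaks, the cAMP response element TGACGTCA in 1.45% and 0.945%, and CTCGCGAG of ZBTB33 in 1.31% and 0.716%. TTCCCGCC of E2F was present in 3.6% and 2.92%, and the E-box CACGTG in 5.19% and 4.05%. Single-gene peaks with an opposite-strand lncRNA TSS were nearer to the members for several motifs, with E2F in 3.59%, SP in 58.7%, the cAMP response element in 1.23% and NRF1 in 7.27%. They held ETS in 9.64%, NF-Y in 16%, YY1 in 2.5%, the E-box in 3.73%, ZBTB33 in 0.864% and the TATA box in 1.14%. Members with an ETS match had a median change of 0.63 and those without had 0.67. With an NRF1 match it was 0.74 against 0.66, with NF-Y 0.74 against 0.66, and with SP 0.70 against 0.65. The 21 members with a cAMP response element had the highest median, 0.88, and it was 0.37 after the trended scaling, against 0.12 in members without one. These are descriptions over peaks, and the windows hold no strand information and overlap for motifs that share letters.

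The change also varied between chromosomes, of which those named here were chosen after their values were seen. Members on chromosome 17 had a median of 0.98, with 92 of 107 higher and 0 lower, and those on chromosome 16 had 0.83, with 73 of 84 higher. The 10 members on chromosome 21 were all higher, with a median of 1.40. The 32 tested members on the X chromosome had a median of 0.29, with 11 higher. The 64 on chromosome 5 had 0.40, with 27 higher. Over all chromosomes 65.6% of tested members and 14.3% of all tested peaks were higher. All tested peaks had medians of 0.21 on chromosome 17, 0.11 on chromosome 16 and 0.18 on chromosome 21. Their medians were -0.11 on the X chromosome and -0.03 on chromosome 5, so all tested peaks varied in the same direction as the members. Single-gene peaks had medians of 0.65 on chromosome 17, 0.60 on chromosome 16, 0.59 on chromosome 21, 0.20 on the X chromosome and 0.19 on chromosome 5, so members were above single-gene peaks on each of these 5. After the trended scaling the members' medians were 0.32 on chromosome 17, 0.24 on chromosome 16 and 0.62 on chromosome 21, but below 0 on the X chromosome (-0.15) and on chromosome 5 (-0.33). T98G is an aneuploid line, and copy number was not measured here.

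Peaks with 3 or 4 protein-coding genes had a median of 0.78 over 114 tested members, with 84 higher and 2 lower, and peaks with exactly 2 had 0.66 over 1331, with 864 higher and 30 lower. In all, the members held start sites of 2939 protein-coding genes, and 32 members shared their closest gene pair with another member. Across members, Pearson correlations of log2 values between libraries were 0.941 to 0.983 within a phase and 0.815 to 0.870 between phases. These are correlations across peaks, which are not independent replicates.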

How the data were processed

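The 3 G1 and 3 M-phase columns of the ATAC-seq table were analysed. Per the labels and methods, the authors trimmed adapters (cutadapt), aligned reads to hg19 with Bowtie in QuasR, keeping 1 of up to 3 locations, discarded mitochondrial reads (SAMtools) and made broad MACS2 peaks from pooled replicates. Versions, a Tn5 shift and how HiSeq and NextSeq runs were joined are not given in the sources used here. The deposited signal values are read counts per peak that the authors scaled to the smallest library and rounded. The authors' log2 comparison column and its SD were not used.

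TSSs of all transcripts of protein-coding genes came from GENCODE release 44 lifted to GRCh37. Tested peaks had the equivalent of 10 in a median-sized library in at least 3 libraries, and a total of 15 or more. The test was limma 3.58.1 (R 4.3.3), with the trend option, on log2(scaled count + 8), which understates changes of low peaks, adjusted by Benjamini-Hochberg over 73121 peaks. Library medians were compared by exact permutation (scipy 1.17.1). The scripts were tested on simulated data.

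The members, gene groups, motifs and known pairs were chosen with earlier results of these data known. Named peaks were those of known pairs, the 5 largest rises and 5 largest falls, and the most abundant member of each gene group, of which some are not reported here. Alternatives were 3 other scalings, a pseudocount of 1, other filters, TSS and peak sets, a replicate block, leaving out each library and other motif windows.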

Additional observations from a re-analysis of the deposited data

How the results depend on the processing

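Under TMM, an equal total in peaks and the trended scaling, 63, 137 and 278 members were lower instead of 32, and 405 were higher under the trended scaling instead of 948. The median change of the members was 0.32 with an equal total and 0.12 with the trended scaling, while the median over all tested peaks moved to -0.08 under TMM, -0.23 with an equal total and 0.01 with the trended scaling. Their median minus that of single-gene peaks, 0.26 as reported, was 0.079 with the trended scaling, 0.23 with a minimum of 10 in every library, 0.23 with basic transcripts and 0.33 against single-gene peaks without another TSS. Leaving out single libraries gave 785 to 1065 members higher, 22 to 44 lower, a median change of 0.59 to 0.76, a difference from single-gene peaks of 0.24 to 0.29 and a library-level difference of 0.17 to 0.21. Same-numbered libraries did not deviate together (correlations of 0.006, -0.010 and 0.028), and 3 of 6 libraries correlated best with their own number. With so few libraries these values cannot show whether same-numbered libraries shared a batch or culture. With the replicate block 970 members were higher and 37 lower. A count model was planned but not run, because whole reads could not be recovered from the scaled values.

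With the trended scaling the medians by TSS distance were 0.11 for overlapping start sites, then 0.14, 0.11, 0.10 and 0.089 in order of distance. The excess of members over single-gene peaks in percentage points grew from the central 400 bp to the whole peak, with 11.5 and 19.2 for ETS, 6.92 and 11.8 for NRF1, 9.30 and 11.6 for NF-Y and 2.73 and 5.92 for YY1. In the whole peak it was 9.57 for SP, 1.41 for the cAMP response element, 4.22 for E2F, 4.59 for the E-box and 1.27 for ZBTB33. For the TATA box it was -1.19 in the central 400 bp and reversed to 2.04 in the whole peak. Members were wider than single-gene peaks as a whole, with a median of 1434 bp against 1203 bp. In the whole peak members lay below single-gene peaks with an opposite-strand lncRNA TSS for some motifs. These were SP (95.4% against 95.9%), E2F (18.6% against 19.8%) and the E-box (28.0% against 28.6%). The cAMP response element (5.74% against 5.86%), ZBTB33 (4.64% against 4.86%) and the TATA box (19.5% against 20.5%) were alike in this. Members lay above for ETS, NRF1, NF-Y and YY1.

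Signs turned at these named peaks under the trended scaling: PNPLA8,THAP5/DNAJB9 -0.74, RPL7/RDH10 -0.33, LRRC41/UQCRH -0.34, CARS2/ING1 -0.16, LPXN/ZFP91,ZFP91-CNTF -0.50, NPAT/ATM -0.34, ZNF142/BCS1L -0.29, COL4A1/COL4A2 -0.16, HARS1/HARS2 -0.36, HSPD1/HSPE1 -0.78, FASTKD3/MTRR -0.59, PRKDC/MCM4 -0.21 and RECQL/GOLT1B -0.55. All of these except ZNF142/BCS1L, COL4A1/COL4A2 and PRKDC/MCM4 passed as lower under that scaling. With an equal total signs turned at PNPLA8,THAP5/DNAJB9 (-0.18), ZNF142/BCS1L (-0.097), HARS1/HARS2 (-0.098), HSPD1/HSPE1 (-0.30), FASTKD3/MTRR (-0.30) and RECQL/GOLT1B (-0.11), of which only HSPD1/HSPE1 passed as lower. Under TMM they turned at HSPD1/HSPE1 (-0.085) and FASTKD3/MTRR (-0.094). Leaving out single libraries gave -0.046 to 0.39 at PNPLA8,THAP5/DNAJB9, below 0 without G1 replicate 2, and -0.084 to 0.18 at HSPD1/HSPE1, below 0 without G1 replicate 2 or M-phase replicate 3. It gave -0.073 to 0.24 at FASTKD3/MTRR, below 0 without G1 replicate 1 or 2 or M-phase replicate 3. The cause of these changes was not tested.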
